A study of Mus musculus with 6 samples.

Results

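The 10 core circadian clock genes Arntl, Clock, Per1, Per2, Per3, Cry1, Cry2, Nr1d1, Nr1d2 and Dbp were compared between the brains of Kdm5c deficient and wild-type mice. They were taken by gene symbol from a table of 43346 rows, each held 1 row, and all 10 had enough reads to be tested among 15127 genes. RNA was sequenced from the brain of 3 adult male Kdm5c deficient mice and 3 adult male wild-type littermates. All 6 carried a mixed background, 50:50 of C57BL/6 and 129, since a heterozygous deficient mother on C57BL/6 was bred with a wild-type 129 father. Kdm5c is an X-linked gene for a demethylase of histone H3 lysine 4, and the comparison asks which transcripts differ in its absence. The labels do not describe the allele, the brain region taken or the time of day at which the tissue was collected.

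The circadian clock is a feedback loop of transcription that runs in nearly every cell. The proteins of Arntl (also called Bmal1) and Clock pair and switch on genes that carry an E-box in their regulatory DNA, among them the Per and Cry genes, Nr1d1, Nr1d2 and Dbp. PER and CRY proteins then return to block that pair, and the nuclear receptors REV-ERBα (Nr1d1) and REV-ERBβ (Nr1d2) repress Arntl through ROR elements, where ROR receptors activate it. DBP drives genes with a D-box, Per genes included. In mouse tissues Arntl therefore peaks in roughly opposite phase to Nr1d1, Dbp and the Per genes. Brains taken at different clock times can thus differ in opposite directions in the 2 arms of the loop, though not at every pair of times. The master pacemaker is the suprachiasmatic nucleus, a small part of the hypothalamus, and other brain regions hold clocks that follow it.

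The members' promoters were searched for such elements, through which the members are known to act on each other. RefSeq promoters of build GRCm38.p6, from 250 bases before to 50 bases after each annotated start, were matched by symbol for 9 of the 10 members, with 13 starts in all. Both strands were searched for the E-box CACGTG, the D-box TTANGTAA, the ROR element TAGGTCA or TGGGTCA and the cAMP response element TGACGTCA, none of which shares its place with another in the promoters printed. Of 32851 promoters of this length, 7.15% held the E-box, 2.32% the D-box, 6.45% the ROR element and 1.79% the cAMP response element. At least 1 element was found for 4 members, whose promoters read as follows, 5′ to 3′ on the gene's strand, with the element in capitals. Per1 (chr11:69098699-69098998, plus strand) and Cry1 (chr10:85185005-85185304, minus strand) each show an E-box, Per3 (chr4:151044616-151044915, minus strand) shows 2 D-boxes, and Arntl (chr7:113207261-113207560, plus strand) shows a ROR element.
Per1 promoter: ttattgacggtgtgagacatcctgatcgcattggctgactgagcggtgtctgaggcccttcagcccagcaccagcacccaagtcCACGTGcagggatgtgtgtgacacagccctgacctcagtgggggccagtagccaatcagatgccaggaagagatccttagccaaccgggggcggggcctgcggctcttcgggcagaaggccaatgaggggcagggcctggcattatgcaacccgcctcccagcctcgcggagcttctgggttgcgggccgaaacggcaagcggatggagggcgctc
Cry1 promoter: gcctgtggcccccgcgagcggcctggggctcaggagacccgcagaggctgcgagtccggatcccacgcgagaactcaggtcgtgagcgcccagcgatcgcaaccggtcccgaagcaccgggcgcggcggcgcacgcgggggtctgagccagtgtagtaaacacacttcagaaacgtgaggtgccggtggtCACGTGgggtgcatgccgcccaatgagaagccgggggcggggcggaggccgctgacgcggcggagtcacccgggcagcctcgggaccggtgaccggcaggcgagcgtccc
Per3 promoter: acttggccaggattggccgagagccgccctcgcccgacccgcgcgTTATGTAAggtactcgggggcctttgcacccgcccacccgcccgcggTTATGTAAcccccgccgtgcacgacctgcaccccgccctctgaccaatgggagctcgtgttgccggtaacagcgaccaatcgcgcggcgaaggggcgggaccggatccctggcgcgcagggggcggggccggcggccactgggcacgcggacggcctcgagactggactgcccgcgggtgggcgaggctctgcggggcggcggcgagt
Arntl promoter: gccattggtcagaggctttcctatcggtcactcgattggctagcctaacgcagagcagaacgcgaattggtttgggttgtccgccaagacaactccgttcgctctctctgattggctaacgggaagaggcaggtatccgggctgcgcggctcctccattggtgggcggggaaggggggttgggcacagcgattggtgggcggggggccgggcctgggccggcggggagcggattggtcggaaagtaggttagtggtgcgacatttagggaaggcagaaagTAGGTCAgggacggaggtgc
A match is a stretch of letters and not a measured binding site, and the window leaves out distal elements. The windows of the other annotated starts of Per1 and Arntl showed no element. The letters searched for were not found in the windows of Clock, Cry2, Nr1d1, Nr1d2 and Dbp. In GENCODE M21 (GRCm38) these genes lie at chr5:76209868-76304792, chr2:92403646-92434043, chr11:98767932-98775333, chr14:18204054-18239127 and chr7:45705088-45710203 in that order, and Per2 lies at chr1:91415982-91459324.

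None of the 10 clock genes passed the test. With edgeR's quasi-likelihood test and Benjamini-Hochberg adjustment over all genes at a threshold of 0.05, 0 of 10 were called, beside 4.93% of all tested genes (2.45% higher and 2.48% lower in deficient mice). Of the 10, 2 had an unadjusted p under 0.05, beside 24.9% of all tested genes. DESeq2 and limma-voom also called 0, with 1 and 2 members at an unadjusted p under 0.05. The median log2 fold change of the 10, deficient over wild type, was 0.02, with 6 above and 4 below 0, against 0.00 over all tested genes. The median size of the change was 0.10 on the log2 scale for the 10 and 0.12 for all genes. In 2 of 10 genes, Per3 and Nr1d2, the levels of the genotypes did not overlap, beside 30.8% of all tested genes.

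**Figure D1:**
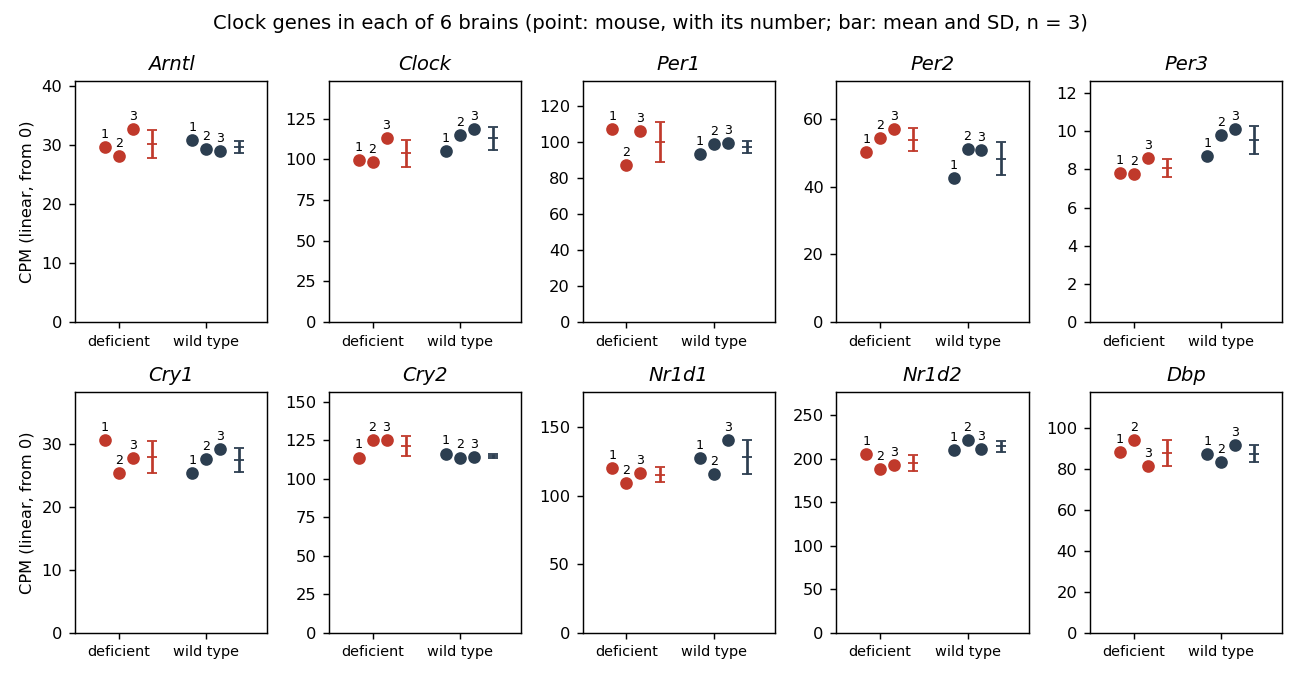
Level of each of the 10 clock genes in CPM, counts scaled to a common library size (linear axis from 0), with Kdm5c deficient mice on the left and wild-type mice on the right of each panel. Points are single mice with their number and bars give the mean and SD of 3; in 8 of the 10 panels the genotypes overlap, and in Per3 and Nr1d2 the deficient mice lie below the wild-type mice.

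The libraries were of similar depth, from 20221675 to 24555412 counts. Each clock gene had between 166 and 5191 counts in a mouse. In CPM, which scale counts to a common library size, Kdm5c itself had 73.9, 65.5 and 78.9 CPM in deficient mice and 77.6, 82.8 and 84.0 CPM in wild-type mice, with an adjusted p of 0.196 by edgeR, so its level over the whole gene does not check the labels. Deficient mouse 2 stood apart: 12 cerebellar markers together had 241 to 1340 CPM in the deficient mice, lowest in mouse 2, and 1430 to 1570 CPM in the wild-type mice. Gabra6, the receptor gene of cerebellar granule cells, was at 116.4, 5.50 and 89.2 CPM in deficient and at 131.5, 130.6 and 150.0 CPM in wild-type mice. The neuronal marker Snap25, at 3149 to 3337 CPM in deficient and 3059 to 3204 CPM in wild-type mice, was high in all 6 libraries. In bulk tissue, fewer cells of a type and less RNA per cell cannot be told apart. Without deficient mouse 2, 0 of the 10 members were called and 1 had an unadjusted p under 0.05 by edgeR.

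Among the activators, Arntl was nearly level across the mice. It had 29.7, 28.2 and 32.7 CPM in the deficient mice, against 30.8, 29.3 and 29.0 CPM in the wild-type mice. The genotypes overlapped fully, with deficient mice at both ends of the range, and the fold was 1.02 with a 95% interval of 0.913 to 1.13 (edgeR, adjusted p = 0.860). Clock, the partner of Arntl, had 99.5, 98.2 and 113.2 CPM in deficient and 104.9, 115.2 and 118.5 CPM in wild-type mice. Deficient mice 1 and 2 were below every wild-type mouse while deficient mouse 3 lay among them, and the log2 fold change was -0.12 ± 0.07 (SE, edgeR, adjusted p = 0.308). Npas2, which can replace Clock in the forebrain, is no member but belongs to the same arm. It had 34.0, 46.3 and 43.7 CPM in deficient and 35.0, 32.7 and 35.3 CPM in wild-type mice, with a log2 fold change of 0.27 ± 0.11 (SE, edgeR, adjusted p = 0.159). Deficient mice 2 and 3 were above all wild-type mice and deficient mouse 1 was not, and without deficient mouse 1 the gene passed, at 0.39 (adjusted p = 0.00926 by edgeR).

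The 3 Per genes, whose proteins form the negative limb, had changes of differing sign, none of which passed. Per1, which also answers quickly to light, neuronal activity and glucocorticoids, had 107.2, 87.5 and 106.2 CPM in deficient and 93.3, 99.2 and 99.3 CPM in wild-type mice. The 3 wild-type values lay inside the range of the deficient ones, and deficient mouse 2 was lowest of all. Its fold was 1.03 (95% interval 0.912 to 1.17, edgeR, adjusted p = 0.765). Per2, a partner of Per1 that is also needed to hold the rhythm, had 50.4, 54.4 and 57.0 CPM in deficient and 42.7, 51.3 and 50.8 CPM in wild-type mice. Its lowest value was wild-type mouse 1 and its 2 highest were deficient mice 2 and 3. The log2 fold change of Per2 was 0.16 ± 0.08 (SE, edgeR, adjusted p = 0.251), and 0.08 without wild-type mouse 1. Per3, whose promoter shows the D-boxes above and which is less needed for the rhythm in the mouse, had 7.80, 7.76 and 8.61 CPM in deficient and 8.70, 9.79 and 10.1 CPM in wild-type mice. All deficient mice were below all wild-type mice, but deficient mouse 3 and wild-type mouse 1 nearly touched. Its log2 fold change of -0.24 ± 0.10 (SE) was the most negative of the 10 and did not pass (adjusted p = 0.187 by edgeR). A two-sided exact permutation test gave p = 0.1 for Per3, the smallest value that 3 against 3 mice allow. With 166 to 230 counts a mouse Per3 was the least deeply counted member: its SD over the 6 mice was 0.156 on the log2 scale, of which counting error alone would give 0.103.

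The Cry genes, which encode the strongest repressors of the Arntl and Clock pair, were close between the genotypes. Cry1 had 30.7, 25.5 and 27.8 CPM in deficient and 25.5, 27.7 and 29.3 CPM in wild-type mice, with the genotypes intermixed and a fold of 1.02 (95% interval 0.891 to 1.16, edgeR, adjusted p = 0.890). Cry2 had 113.7, 125.0 and 125.1 CPM in deficient and 116.3, 113.7 and 113.9 CPM in wild-type mice. Deficient mice 2 and 3 were highest and deficient mouse 1 was level with the wild-type mice. The log2 fold change of Cry2 was 0.08 ± 0.05 (SE, edgeR, adjusted p = 0.356).

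Both REV-ERB genes, the repressors of Arntl, had slightly lower levels in deficient mice without passing. Nr1d1 had 120.0, 109.2 and 116.8 CPM in deficient and 127.5, 115.7 and 140.6 CPM in wild-type mice. Wild-type mouse 2 lay among the deficient mice, and the log2 fold change was -0.15 ± 0.07 (SE, edgeR, adjusted p = 0.243), and -0.07 without wild-type mouse 3. Nr1d2 had 205.4, 187.4 and 192.5 CPM in deficient and 210.1, 221.3 and 210.5 CPM in wild-type mice. The genotypes did not overlap, deficient mouse 1 lying just under the lowest wild-type mouse. Its log2 fold change was -0.13 ± 0.05 (SE), with the smallest adjusted p of the 10, 0.155 by edgeR, and a two-sided exact permutation p of 0.1, the smallest possible. The fold was 0.912 with a 95% interval of 0.841 to 0.989, which is not adjusted for the number of genes. Its log2 fold change stayed between -0.17 and -0.10 over all settings and mice left out, with adjusted p from 0.0564, without deficient mouse 1, to 0.424, without wild-type mouse 2 (edgeR).

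Dbp, the output gene known for one of the widest daily swings in mouse tissues, was the member with the smallest difference. Its level was 88.4, 94.2 and 81.4 CPM in deficient and 87.5, 83.2 and 91.8 CPM in wild-type mice. The 3 wild-type values lay inside the range of the deficient ones. The log2 fold change was 0.01 ± 0.06 (SE), a fold of 1.01 with a 95% interval of 0.909 to 1.11 (edgeR, adjusted p = 0.949). Exons of Dbp overlap those of Sphk2 on the other strand, and those of Nr1d1, Cry2 and Arntl overlap antisense genes too: Thra, D930015M05Rik and Gm45355. Without a stated use of strand such reads cannot be told apart, which matters most for Nr1d1, since Thra was at 507.8, 563.7 and 528.2 CPM in deficient and 466.6, 451.9 and 485.1 CPM in wild-type mice.

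Per length the REV-ERB genes and Dbp were the most abundant members and Per3 the least. In CPM per kilobase of annotated exon, mean levels over the 6 mice were 39.5 ± 3.59 for Nr1d1, 37.8 ± 2.32 for Nr1d2 and 29.3 ± 1.63 for Dbp (SD, n = 6). Cry2 at 18.7 ± 0.880 and Per1 at 17.5 ± 1.34 followed (SD, n = 6). Per2, Cry1 and Clock lay together at 8.73 ± 0.828, 8.31 ± 0.617 and 7.88 ± 0.626, Arntl was at 3.98 ± 0.211 and Per3 at 0.915 ± 0.101 (SD, n = 6). The ranges over mice overlapped between Nr1d1 and Nr1d2, between Cry2 and Per1, and between neighbours among Per2, Cry1 and Clock, so those orders are not resolved, while the other neighbours were apart. These ranges hold only the spread between mice. Errors from the annotated exon length or from antisense reads are not in them, so an order between genes stays uncertain.

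The spread of the clock genes over the 6 mice was near that of other genes. The highest mouse exceeded the lowest by 1.10-fold for Cry2, 1.16-fold for Arntl and for Dbp, 1.18-fold for Nr1d2, 1.20-fold for Cry1, 1.21-fold for Clock and 1.22-fold for Per1. The ratio was 1.29 for Nr1d1, 1.30 for Per3 and 1.34 for Per2. The median of this ratio was 1.21 over the 11433 genes that averaged 5 CPM or more. To set the arms of the loop against each other in each mouse, the mean log2 deviation from the 6-mouse mean of Per1, Per2, Per3, Nr1d1, Nr1d2 and Dbp was taken, less that of Arntl, Clock and Npas2. This contrast was 0.08, -0.10 and -0.14 in the deficient mice, against 0.00, 0.07 and 0.09 in the wild-type mice. Deficient mouse 1 lay among the wild-type mice and deficient mice 2 and 3 lay below them. The means were -0.05 ± 0.12 in deficient and 0.05 ± 0.05 in wild-type mice (SD, n = 3 each), with a difference of -0.10 on the log2 scale. Each arm averages genes whose own log2 fold changes differed in sign. They were -0.24 for Per3 and 0.16 for Per2, and -0.12 for Clock and 0.27 for Npas2 (edgeR). Arntl was at 0.02, so the negative difference between the genotypes rests on Npas2, which is no member. A small contrast can therefore hide changes within an arm. In deficient mouse 3 the contrast came from the activator arm, at 0.14 with the other arm at 0.00. In deficient mouse 2 Arntl and Clock deviated by -0.08 and -0.14, and of the activators only Npas2 was above the mean. The arms of this mouse, which had few cerebellar transcripts, were at 0.03 and -0.07. The part of that tissue difference in the contrast was not tested, and without deficient mouse 2 the difference was -0.08. Leaving out deficient mouse 1 gave -0.17, leaving out deficient mouse 3 gave -0.06, and it was -0.18 with Per1 and Per2 left out of the contrast.

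**Figure D2:**
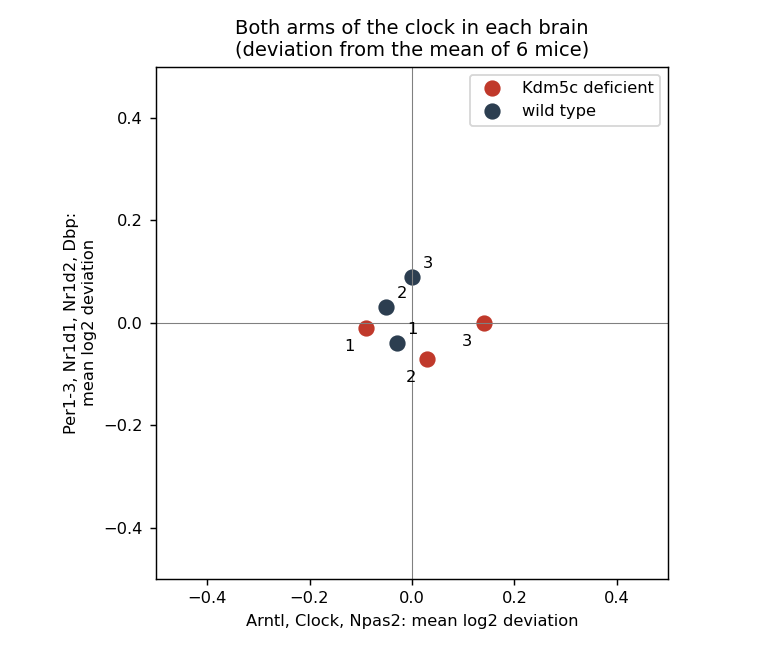
Mean log2 deviation of the activator genes Arntl, Clock and Npas2 (x axis) and of Per1, Per2, Per3, Nr1d1, Nr1d2 and Dbp (y axis) from the mean of the 6 mice, on equal axes. Each point is a mouse with its number; all 6 lie within 0.14 of 0 on both axes, with deficient mouse 3 farthest right and wild-type mouse 3 highest.

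Across the 6 mice the strongest relation of Arntl was an opposite one with Dbp, and none of its relations passed. Of 9 relations of Arntl to the other members, that with Dbp had Pearson's r = -0.76 (exact permutation p = 0.0792, adjusted p = 0.713) and Spearman's rho = -0.83 (exact permutation p = 0.0583, adjusted p = 0.525), two-sided with n = 6. Without the 2 mice farthest from the median of Arntl, deficient mouse 3 and wild-type mouse 1, r with Dbp was -0.67. It was then no longer the strongest, with 0.98 for Per1, -0.92 for Per2, 0.89 for Cry1, -0.89 for Cry2 and 0.70 for Nr1d2. Clock, Per3 and Nr1d1 were at 0.18, 0.15 and 0.30. Over all 6 mice r for the other 8 members ran from -0.14 for Nr1d2 to 0.54 for Per1, with adjusted p of 0.981 in the exact permutation test. The values of Arntl behind these relations span 1.16-fold, and each genotype holds too few mice for a value within it.

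The other genes of the pathway were, like the members, not called. Of 41 tested genes in lists of activators and ROR receptors, repressors, output genes, kinases and turnover factors, and chromatin partners, 0 passed by edgeR or limma-voom, beside 4.93% of all tested genes by edgeR. At an unadjusted p under 0.05 were 9 of the 41 by edgeR, beside 24.9% of all tested genes, and 10 by limma-voom. DESeq2 called 2, Tsc22d3 higher and Kmt2a lower, and 6 passed by edgeR without deficient mouse 1 and 2 without deficient mouse 2. Over all tested genes the same fits called 1209, 2098 and 684 in that order, against 746 in the main edgeR fit. The medians of the log2 fold changes of the 5 lists ran from -0.09 for 4 repressors to 0.04 for 7 output genes, against 0.00 over all tested genes. Casein kinase genes Csnk1d and Csnk1e, which mark PER proteins for destruction, had 0.09 ± 0.05 and 0.08 ± 0.04 (SE, adjusted p = 0.256 and 0.311 by edgeR). The ubiquitin ligase genes Fbxl21, which acts on CRY proteins, and Btrc, which acts on PER proteins, had -0.20 ± 0.10 and 0.10 ± 0.05 (SE, adjusted p = 0.258 and 0.290 by edgeR).

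**Figure D3:**
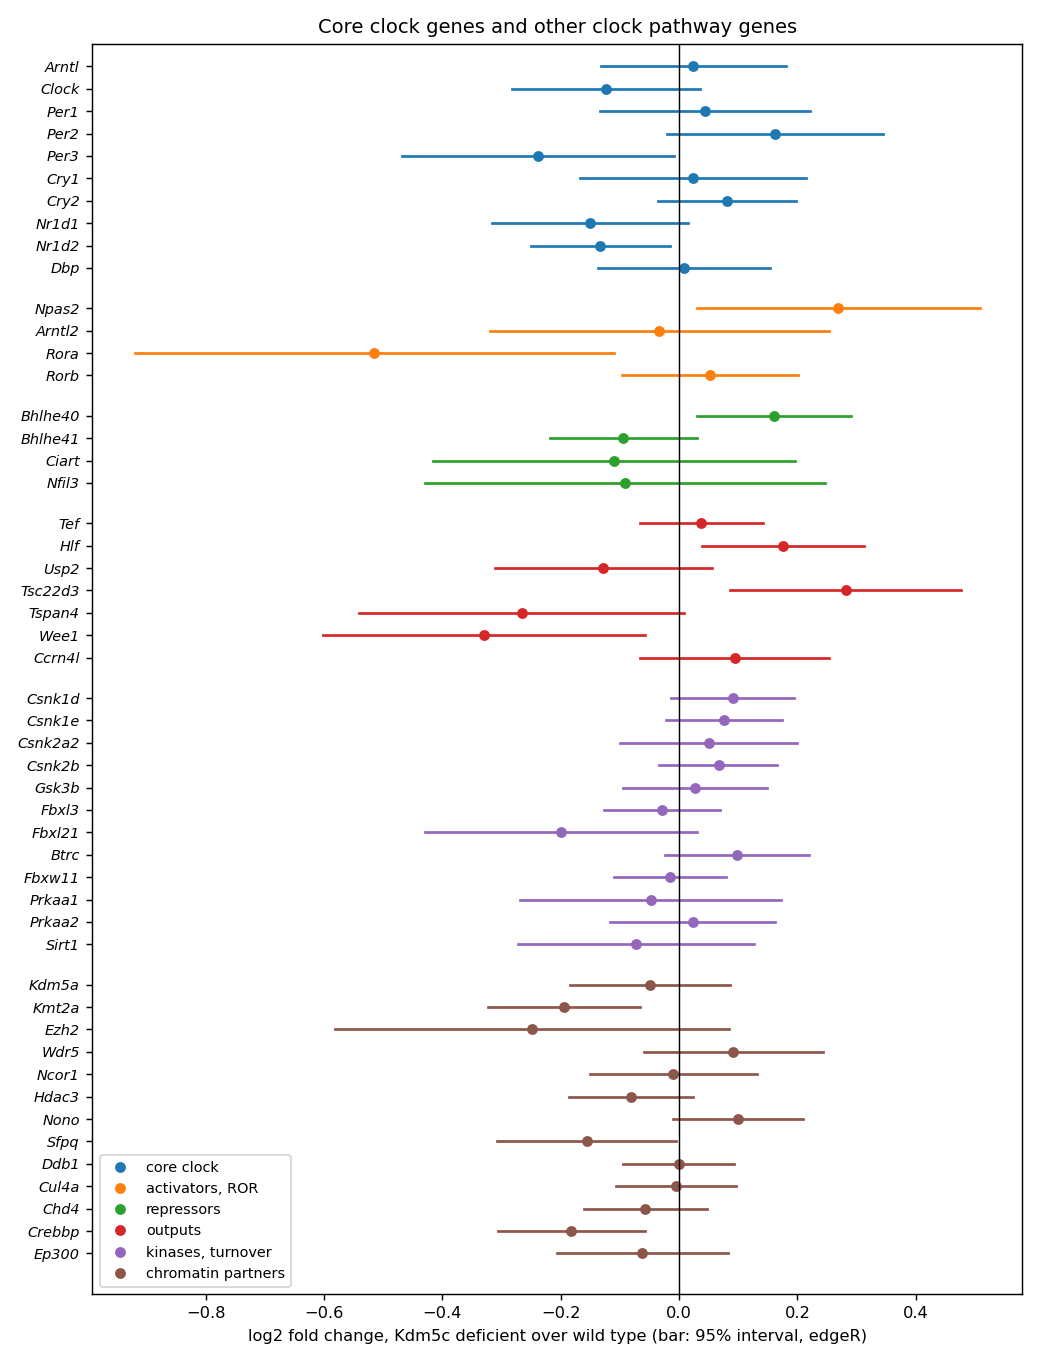
Log2 fold change, Kdm5c deficient over wild type, of the 10 core clock genes and other clock pathway genes, with unadjusted 95% intervals from edgeR; colours mark the lists. None of the genes plotted passed after adjustment; Rora lies farthest from 0.

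The ROR receptor genes Rora and Rorb had unlike values. Rora, an activator of Arntl that is also strongly expressed in the cerebellum, had 199.3, 112.3 and 181.2 CPM in deficient and 213.6, 251.0 and 239.2 CPM in wild-type mice. All deficient mice were below all wild-type mice and mouse 2 was far below the others. The log2 fold change was -0.51 ± 0.18 (SE, edgeR, adjusted p = 0.123), -0.30 without deficient mouse 2 (adjusted p = 0.0468) and -0.68 without deficient mouse 1 (adjusted p = 0.0320). The last of these fits called 2098 genes over all. Rorb had 38.6, 45.2 and 43.2 CPM in deficient and 41.4, 40.1 and 41.0 CPM in wild-type mice, at 0.05 ± 0.07 (SE, edgeR, adjusted p = 0.661). Rora was lowest in deficient mouse 2, where the 12 cerebellar markers had a mean log2 deviation of -2.24 from the mean of the mice, against 0.45 and 0.05 in deficient mice 1 and 3 and 0.50 to 0.69 in wild-type mice. The part of that tissue difference in the values of Rora was not tested.

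**Figure D4:**
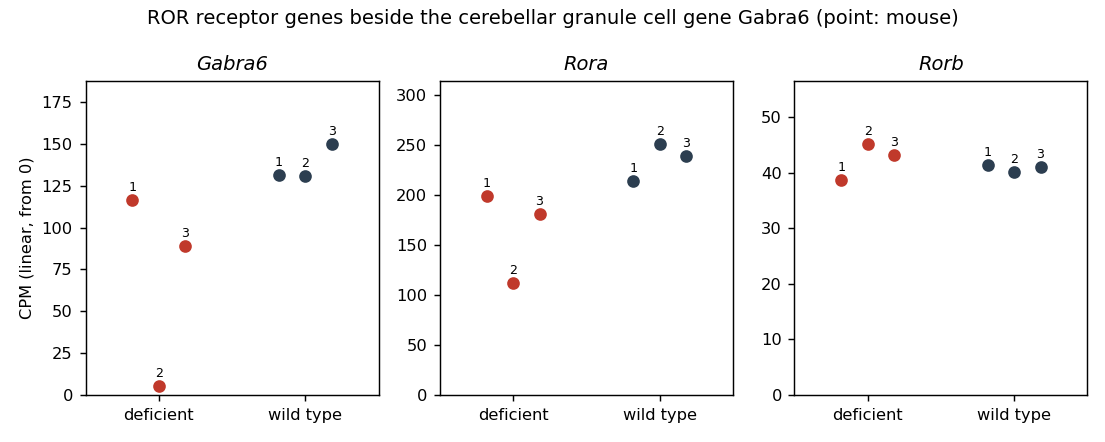
CPM (linear axes from 0) of the cerebellar gene Gabra6 and of the ROR receptor genes Rora and Rorb in each mouse, deficient left and wild type right. Deficient mouse 2 has the lowest Gabra6 (5.50 CPM) and Rora (112.3 CPM) of the 6, and the highest Rorb (45.2 CPM).

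Among repressors outside the core, Bhlhe40, which competes for E-boxes, had 116.3, 116.1 and 123.9 CPM in deficient and 103.3, 101.5 and 113.8 CPM in wild-type mice. The genotypes were apart by a small gap, with a log2 fold change of 0.16 ± 0.06 (SE, edgeR, adjusted p = 0.132), and its relative Bhlhe41 had -0.09 ± 0.05 (SE, adjusted p = 0.321). Ciart, a repressor whose RNA follows that of Dbp in mouse tissues, had 3.10, 2.98 and 3.04 CPM in deficient and 3.08, 3.13 and 3.63 CPM in wild-type mice (adjusted p = 0.651 by edgeR). Nfil3, which opposes DBP at D-boxes, had -0.09 ± 0.15 (SE, edgeR, adjusted p = 0.743). Among output genes, the DBP relative Hlf had 271.9, 299.2 and 305.9 CPM in deficient and 257.3, 246.8 and 272.4 CPM in wild-type mice, overlapping only by deficient mouse 1 and wild-type mouse 3 (0.18 ± 0.06, SE, edgeR, adjusted p = 0.121). The cell cycle kinase gene Wee1, an E-box target, had -0.33 ± 0.12 (SE, edgeR, adjusted p = 0.139) and the tetraspanin gene Tspan4 -0.27 ± 0.12 (SE, adjusted p = 0.215). Without deficient mouse 1, the fit with 2098 calls over all genes, Hlf passed at 0.23 (adjusted p = 0.0293 by edgeR) and Tspan4 at -0.43 (adjusted p = 0.0101).

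Of 13 chromatin partners of clock proteins, none passed by edgeR. A positive log2 fold change was found for 2 and a negative one for 11, at a median of -0.06 against 0.00 over all tested genes. Kmt2a, the H3 lysine 4 methyltransferase known to act with CLOCK, had 242.6, 236.8 and 267.9 CPM in deficient and 279.0, 293.1 and 283.0 CPM in wild-type mice. The genotypes were apart, at -0.19 ± 0.06 (SE, edgeR, adjusted p = 0.0837), and DESeq2 gave an adjusted p of 0.0386. Crebbp, an acetyltransferase that assists the activators, had -0.18 ± 0.05 (SE, edgeR, adjusted p = 0.0881). It passed without deficient mouse 1 (adjusted p = 0.0466), in the fit with 2098 calls over all genes. The RNA-binding protein genes Sfpq and Nono, whose products bind PER complexes, had -0.16 ± 0.07 and 0.10 ± 0.05 (SE, edgeR, adjusted p = 0.189 and 0.239). Kdm5a, the relative of Kdm5c that is known as a partner of CLOCK and BMAL1, had -0.05 ± 0.06 (SE, edgeR, adjusted p = 0.647). Exons of Kmt2a, Kdm5a, Bhlhe40, Bhlhe41, Btrc, Csnk1d, Csnk1e, Rora and Tspan4, and of Rbm3, Sult1a1 and Hspa1a described later, overlap those of antisense genes, so their values are uncertain to that extent. Exons of Sfpq overlap those of Gm12940 on the same strand, so its value is uncertain too.

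The signals that reset clocks were read from other lists. Of 10 markers of the suprachiasmatic nucleus 7 were tested, 1 rose and none fell, beside 2.45% of all tested genes higher and 2.48% lower, and the defining genes Nms, Prok2 and Six6 had too few reads to be tested. The one that rose was Avp, a peptide gene of this and other hypothalamic nuclei, at 14.3, 19.9 and 15.6 CPM in deficient and 5.59, 11.5 and 4.90 CPM in wild-type mice (log2 fold change 1.20 ± 0.28, SE, edgeR, adjusted p = 0.0480). Vip is a peptide gene of the light-receiving part of the suprachiasmatic nucleus, though bulk tissue does not tell which cells its reads came from. It had 19.98, 24.3 and 24.4 CPM in deficient and 18.4, 16.5 and 21.7 CPM in wild-type mice (0.28 ± 0.11, SE, edgeR, adjusted p = 0.179). Vipr2, the receptor gene for that peptide, had -0.43 ± 0.14 (SE, edgeR, adjusted p = 0.112). Lhx1, a transcription factor gene of this nucleus that is also expressed in the cerebellum, had 16.9, 3.02 and 12.2 CPM in deficient and 17.7, 18.7 and 19.6 CPM in wild-type mice (edgeR, adjusted p = 0.274), lowest in deficient mouse 2. Pituitary markers, which mark tissue attached to the hypothalamus, summed to 3.56 to 20.6 CPM in deficient and 1.79 to 2.77 CPM in wild-type mice over 5 genes, of which Pomc alone could be tested and rose (log2 fold change 1.29, edgeR, adjusted p = 0.0331). The upper end is deficient mouse 3 alone, with 305 counts of Gh and 35 of Prl, against at most 2 counts of Gh and 1 of Prl in any other mouse. In deficient mice 1 and 2 the sum was mostly Pomc, with 60 and 97 counts against 31, 44 and 34 in wild-type mice. Tshb had 13 and 6 counts in those 2 mice, against 12, 7 and 8 in wild-type mice. Oligodendrocyte markers summed to 4590 to 6010 CPM in deficient and 6190 to 7170 CPM in wild-type mice. The part of these tissue differences in the values of Avp or of the clock genes was not tested. The call of Avp was lost on leaving out deficient mouse 2, deficient mouse 3, wild-type mouse 1 or wild-type mouse 3, with adjusted p from 0.0601 to 0.163 (edgeR). It was also lost without scaling (adjusted p = 0.0534) and with a filter at a mean of 5 CPM (adjusted p = 0.0559).

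Of 9 genes induced by glucocorticoids, which also induce Per1, 1 rose and none fell, beside 2.45% of all tested genes higher and 2.48% lower. All 9 had a positive log2 fold change, at a median of 0.39 against 0.00 over all tested genes. The one that passed was the transcription factor gene Zbtb16, at 51.0, 52.2 and 61.4 CPM in deficient and 32.7, 37.3 and 40.4 CPM in wild-type mice (0.58 ± 0.09, SE, edgeR, adjusted p = 0.0214), a call lost without deficient mouse 3 or wild-type mouse 1 or 2 (adjusted p from 0.0511 to 0.0988). The kinase gene Sgk1 had 176.3, 94.6 and 154.4 CPM in deficient and 87.2, 88.2 and 89.6 CPM in wild-type mice (0.68 ± 0.19, SE, edgeR, adjusted p = 0.0704). Deficient mouse 2 lay near the wild-type mice, and without it Sgk1 passed at 0.90 (adjusted p = 5.9e-05). Fkbp5, a cochaperone of the glucocorticoid receptor, had 0.34 ± 0.09 (SE, edgeR, adjusted p = 0.0675), and the sulfotransferase gene Sult1a1 0.49 ± 0.14 (SE, adjusted p = 0.0755). Tsc22d3, which is both rhythmic in many tissues and glucocorticoid-induced, had 122.3, 96.6 and 117.9 CPM in deficient and 87.6, 96.1 and 93.4 CPM in wild-type mice (0.28 ± 0.09, SE, edgeR, adjusted p = 0.0918), and passed without deficient mouse 2 (adjusted p = 0.00592). Without deficient mouse 2 the log2 fold change of Per1 was 0.13 ± 0.05 (SE, edgeR, adjusted p = 0.169).

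Of 10 immediate early genes, which answer neuronal activity as Per1 does, 1 rose and none fell, beside 2.45% of all tested genes higher and 2.48% lower. This was Egr1, at 149.9, 175.2 and 187.6 CPM in deficient and 124.5, 114.0 and 142.0 CPM in wild-type mice (0.43 ± 0.10, SE, edgeR, adjusted p = 0.0447), a call lost without any one mouse other than deficient mouse 1 (adjusted p from 0.0523 to 0.176). Egr2, Fosb and Ier2, of the same class, had 0.58, 0.32 and -0.37 on the log2 scale (edgeR, adjusted p = 0.145, 0.138 and 0.197). Of 7 genes that answer temperature, a signal that also sets peripheral clocks, 2 rose and none fell, beside the same shares of all tested genes. They were the heat shock genes Hspa1a and Hspa1b, near-identical copies whose reads are uncertain, at 1.16 ± 0.18 and 1.12 ± 0.17 (SE, adjusted p = 0.0186 and 0.0165 by edgeR). The calls of both were lost in fits without deficient mouse 3 or wild-type mouse 1 or 2, and that of Hspa1a also without wild-type mouse 3 (adjusted p from 0.0511 to 0.0931). Rbm3, a cold-induced RNA-binding protein gene, had 24.9, 22.2 and 27.5 CPM in deficient and 29.8, 34.3 and 30.4 CPM in wild-type mice (-0.34 ± 0.09, SE, edgeR, adjusted p = 0.0658). Dnajb1, a heat shock cochaperone gene, had 66.3, 69.2 and 63.3 CPM in deficient and 53.8, 54.7 and 60.0 CPM in wild-type mice (0.24 ± 0.06, SE, edgeR, adjusted p = 0.0553). The genotypes did not overlap in Rbm3 or Dnajb1, and DESeq2 called both (adjusted p = 0.0265 and 0.0334).

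In the authors' deposited table, whose log2 fold change runs wild type over deficient, Nr1d2 had the smallest unadjusted p of the 10 members, 0.0337, at 0.125 ± 0.059 (SE). In the same authors' deposited table Per3 was at 0.187 ± 0.117 and Dbp at -0.01 ± 0.073 (SE), with unadjusted p of 0.111 and 0.893.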

How the data were processed

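Brain RNA of 6 mice was sequenced from Illumina TruSeq libraries, per the labels' protocols. The deposited table holds raw counts per gene symbol and mouse, per the file headers, as whole numbers with a different total in each mouse. The submitters' processing notes name DESeq2 and GRCm38. The sources used here do not name the aligner, counter, annotation or strandedness. The authors deposited further columns: the signal averaged over mice, log2 fold change and its error, the Wald statistic as a score, and the p-value. They served only for comparison.

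Counts were tested in R 4.3.3 with edgeR 4.0.16 (quasi-likelihood test, genotype as the only factor, TMM scaling, default filter with a minimum count of 10 and total of 15). Benjamini-Hochberg adjustment ran over all 15127 genes, with a threshold of 0.05. CPM of single genes use the scaled library size, while the sums over marker lists use the raw total of each library. Relations and contrasts used log2 CPM with a prior count of 2. Exon lengths and overlaps came from GENCODE M21 (GRCm38). The test was tested on simulated data. Alternatives were other scalings and filters, DESeq2 1.42.0, limma-voom (limma 3.58.1), a replicate block and leaving out each mouse. Noct was found under its older symbol Ccrn4l, and Csnk2a1 is not analysed here.

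The members, lists and alternatives were chosen with earlier results of these data known. Named genes are the members and, in each list, the genes that passed plus the 4 with the smallest p; Gabra6 and Thra, and the genes closest to the contrast between the arms, were also in the rule. Kdm5a, Snap25, Pomc and Hspa8 were named after their values were seen. Depth was 20221675 to 24555412 counts per mouse. The tests set the genotype difference against the spread between mice of a genotype and treat the mice as independent. The labels number the mice but do not say how litters were shared, so that independence could not be checked. Some genes that the rule names are not reported here.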

Additional observations from a re-analysis of the deposited data

How the results depend on the processing

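With every alternative tried, 0 of the 10 clock genes were called. The count over all genes, 746, became 1121 without the low-count filter, 1209 with DESeq2, 58 with the replicate block, 1792 at an adjusted p of 0.1, and 44 to 2098 when a mouse was left out, lowest without wild-type mouse 1 and highest without deficient mouse 1. The same replicate numbers did not deviate together (correlations of -0.093, -0.152 and 0.19 over 11433 genes), so the block pairs mice by number only; with it the calls of Avp (adjusted p = 0.0638), Egr1 (0.0831), Hspa1a (0.0831) and Hspa1b (0.0746) were lost (edgeR). Of the 41 other pathway genes, 2 passed with DESeq2, 3 at an adjusted p of 0.1 and 0 to 6 with a mouse left out.

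Near 0 the sign of a log2 fold change was not fixed: Dbp was at -0.01 without scaling. With a mouse left out it ran from -0.04 to 0.06 for Dbp, -0.04 to 0.07 for Arntl, -0.04 to 0.09 for Cry1, 0.00 to 0.13 for Per1 and -0.21 to 0.07 for Nfil3. The contrast between the arms was -0.18 without Per1 and Per2, and -0.17 to -0.06 with a mouse left out. Arntl alone deviated by -0.01, -0.08 and 0.13 in deficient and by 0.04, -0.03 and -0.04 in wild-type mice. The other arm deviated by -0.01, -0.07 and 0.00, against -0.04, 0.03 and 0.09. With Arntl alone as the activator arm the genotypes were therefore intermixed. Pearson's r of Arntl changed sign with upper quartile scaling for Per2 (-0.02), Cry1 (-0.10) and Nr1d1 (-0.06), with median-ratio scaling for Cry1 (0.00), without scaling for Per2 (-0.07), Per3 (0.04) and Nr1d2 (0.06), and without the 2 mice farthest from the median for Per2 (-0.92), Per3 (0.15), Cry2 (-0.89) and Nr1d2 (0.70). The cause was not tested. Depth limits Per3 most among the members.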

Other observations

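Outside the pathway lists, the genes whose log2 CPM was most like the contrast between the arms over the 6 mice were Ngfr (r = 0.985), Rhbdd1 (0.983), D3Ertd751e (0.980), Kcns3 (0.974) and Car2 (0.972). Those that ran most against it were Fra10ac1 (-0.993), Aldh1b1 (-0.987), Bag5 (-0.987), Gpr161 (-0.981) and Oard1 (-0.981). The search covered 11357 genes, of which 257 had r beyond 0.9 in either direction, and with 6 mice such values are a description only.

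Hspa8, a constitutive chaperone gene named after its values were seen, had 53.6 CPM in deficient mouse 1, against 160.6 and 154.2 CPM in the other deficient mice and 141.1 to 149.4 CPM in wild-type mice. Its exons overlap those of the small RNA genes Snord14c, Snord14d and Snord14e.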
